A study of Homo sapiens with 12 samples.

Results

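The mitosis genes described here were 44 genes whose products act between G2 and the end of cell division. They were a fixed list of symbols, chosen for function and not by a measured value, but with earlier results of these data known. All 44 were found among the 20030 rows of the expression table. All 44 also passed the filter on low values (a mean of at least 0.1 FPKM) in every comparison. By role the list held 8 kinases, 5 cyclins and CDC25 phosphatases, 3 partners of Aurora B in the chromosomal passenger complex, 7 kinetochore and spindle checkpoint genes, 6 genes of anaphase control and cohesion, 6 mitotic kinesins, 6 spindle and cytokinesis genes, 2 chromosome proteins and the transcription factor FOXM1.

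The sequenced mRNA libraries were made from MOLM-13 and THP-1, human acute myeloid leukemia cell lines that both carry an MLL rearrangement. MOLM-13 also carries an internal tandem duplication in FLT3, and THP-1 has wild-type FLT3. Cells were kept for 48 h with DMSO (control) or with Jiyuan oridonin A (JOA), a kaurene diterpenoid, at 0.5 µM in MOLM-13 and 2 µM in THP-1, with 3 libraries in each of the 4 groups. The sample labels and the methods give 48 h, while a figure legend of the study gives a longer time for the sequenced cells. Since dose and cell line differed together, their parts in any difference between the lines cannot be told apart. The study asked how JOA acts on growth and differentiation of such cells, and the mitosis genes bear on its cell cycle side.

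Entry into mitosis is driven by CDK1 bound to cyclin B, which CDC25 phosphatases activate and PLK1 and the Aurora kinases assist. Kinetochores then attach chromosomes to the spindle, the checkpoint holds back the anaphase-promoting complex until attachment is complete, and CDC20 switches that complex on so that separase can cut cohesin. Transcripts of these genes are made mostly in G2 and M and are repressed in G0 and G1, so in bulk RNA a lower level can come from fewer cells in these phases or from less RNA per cell, which cannot be told apart here.

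Promoters of such genes are known for CHR elements, bound by DREAM and MuvB complexes, and for CCAAT boxes, bound by NF-Y. RefSeq promoter windows (GRCh38.p14, 250 bases before to 50 bases from the annotated start, the first listed start where a gene had several) were matched by symbol for 37 of the 44 members. The members without an entry were AURKA, BIRC5, BUB3, FOXM1, TPX2, TTK and UBE2C. The stretches from 120 bases before to 30 bases from the start are shown for TOP2A, KIF11 and CENPF, 3 of the 4 members with the smallest p-values in MOLM-13, for DLGAP5 and HMMR, the members with the smallest p-values in THP-1, and for CDC20, the member that differed most between the lines. Capitals mark CHR letters (TTTGAA or TTCGAA) and CCAAT, on either strand, and each stretch reads 5′ to 3′ along the gene.
TOP2A: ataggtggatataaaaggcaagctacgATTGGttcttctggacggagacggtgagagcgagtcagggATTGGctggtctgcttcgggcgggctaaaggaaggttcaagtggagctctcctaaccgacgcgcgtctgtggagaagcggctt
KIF11: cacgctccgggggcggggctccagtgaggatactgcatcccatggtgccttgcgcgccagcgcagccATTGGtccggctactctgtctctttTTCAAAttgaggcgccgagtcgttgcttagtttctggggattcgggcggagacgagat
CENPF: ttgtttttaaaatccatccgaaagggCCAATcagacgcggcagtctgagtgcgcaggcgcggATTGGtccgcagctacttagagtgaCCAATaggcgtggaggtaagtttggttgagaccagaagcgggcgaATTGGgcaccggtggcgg
DLGAP5: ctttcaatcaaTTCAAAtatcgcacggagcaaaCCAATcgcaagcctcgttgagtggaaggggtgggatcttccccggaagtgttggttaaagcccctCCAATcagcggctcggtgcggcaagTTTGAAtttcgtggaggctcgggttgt
HMMR: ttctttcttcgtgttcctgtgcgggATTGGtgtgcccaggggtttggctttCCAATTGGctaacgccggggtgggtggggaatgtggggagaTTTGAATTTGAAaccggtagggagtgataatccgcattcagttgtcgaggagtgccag
CDC20: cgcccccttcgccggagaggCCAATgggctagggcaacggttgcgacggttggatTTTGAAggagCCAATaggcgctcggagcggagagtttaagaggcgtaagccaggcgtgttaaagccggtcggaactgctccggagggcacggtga

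These stretches lie at chr17:40417867-40418016 (minus strand), chr10:92593010-92593159 (plus strand), chr1:214603075-214603224 (plus strand), chr14:55191556-55191705 (minus strand), chr5:163460512-163460661 (plus strand) and chr1:43358861-43359010 (plus strand), in the order shown. Counting the start base as 0, KIF11 had a reverse CCAAT beginning at -53 and CHR letters in reverse at -28. HMMR had adjoining CHR letters at -28 and -22, and its CCAAT matches at -69 and -66 overlapped each other. CDC20 had CHR letters at -65 between CCAAT matches at -100 and -55. DLGAP5 had CHR letters in reverse at -109 and forward at 3, and further ones at -138, outside the stretch shown. CDC20 had further CHR letters in reverse at -178 and HMMR further CCAAT matches at -177 and -144, also outside it. The CHR letters of TOP2A (-194 and -151) and CENPF (40) all fell outside the stretch shown.

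Of the 37 windows, 27 (73.0%) held CHR letters, against 16.6% of all 27305 RefSeq promoter windows of the same length. CCAAT was found in 29 (78.4%), against 35.7% of all windows, and 2 or more CCAAT matches in 17 (45.9%), against 11.3%. Both motifs were found in 23 windows (62.2%), against 6.58% of all. The 35 CHR matches had a median position of -26, and the 60 CCAAT matches had a median of -70. Among the other lists described below, CHR letters were found in 42 of 85 windows of other mitosis genes (49.4%), 3 of 17 of cell cycle transcription regulators (17.6%), 2 of 30 of S phase genes (6.67%) and 0 of 9 of G1 genes. A match describes the letters of a window only.

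**Figure D1:**
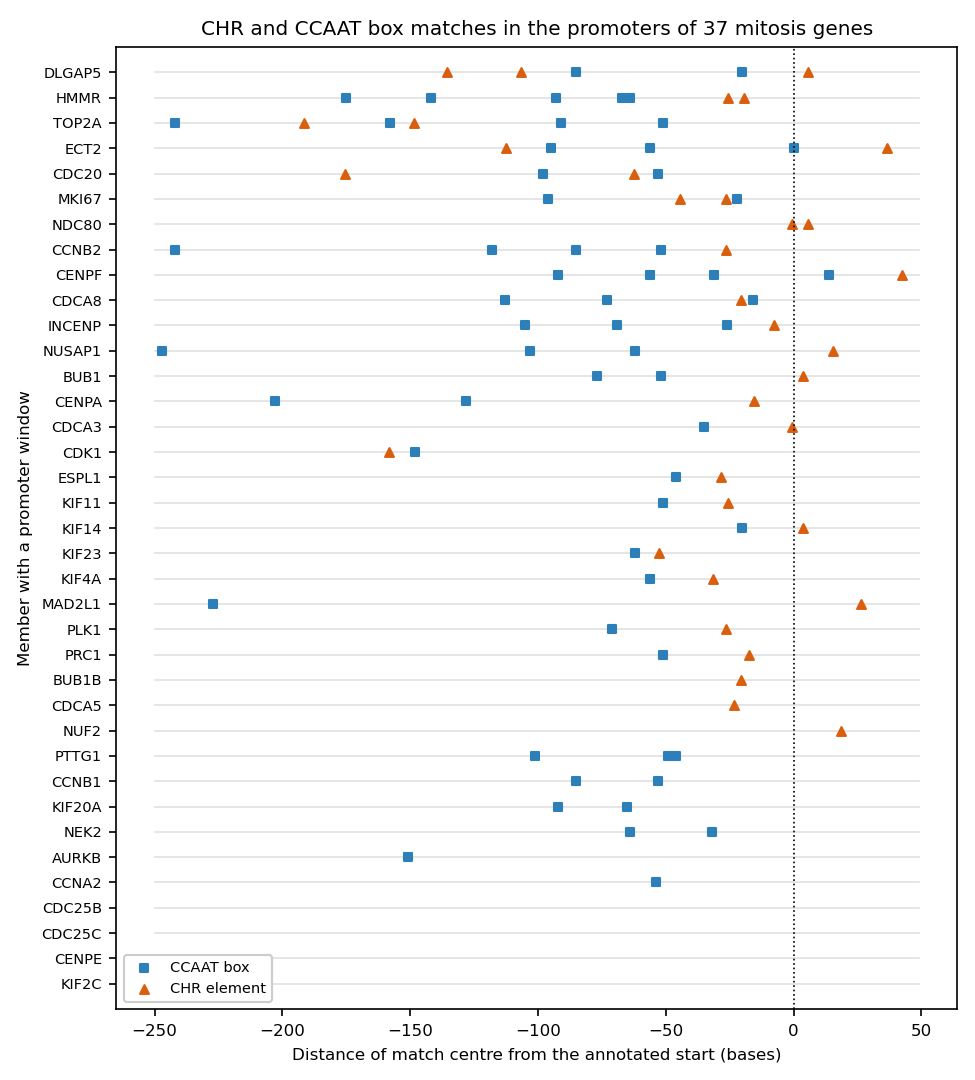
Positions of CHR (triangles) and CCAAT (squares) matches in the promoter windows of 37 members, on the x axis in bases from the annotated start and with 1 row a gene. CHR matches gather near the start (median -26) and CCAAT matches upstream of them (median -70). For 4 genes (CDC25B, CDC25C, CENPE and KIF2C) the window of the start used held neither set of exact letters.

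The authors deposited FPKM, in which the fragments of a gene are divided by its exon length and by the mapped fragments of the library. Total depth is unknown, but the size of the smallest step between values put the relative depth of the libraries at 0.879 to 1 in MOLM-13 and 0.924 to 1.06 in THP-1, each against its line's first control. Myeloid genes were present in all 12 libraries, among them PTPRC (14.9 to 19.9 FPKM), SPI1 (38.3 to 63.3) and CD33 (5.38 to 24.0), while CD3E and EPCAM of T and epithelial cells did not exceed 0.0293 and 0.105 FPKM. Of further genes listed for other cell types, KRT18 reached 8.20 FPKM and PECAM1 33.8, and COL1A1 and HBA1 did not exceed 0.998. Whether these levels came from foreign cells was not tested, nor was their part in any result. Replicate numbers are shared by control and JOA libraries, and nothing in the labels says that replicates were separate cultures, so p-values measure only the spread between these libraries, which may be technical.

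Mitosis genes were among the better expressed genes in both lines before treatment. Control means ran from 4.07 FPKM (CDC25C) to 87.6 (BUB3) in MOLM-13 with a median of 22.4, against a median of 6.57 over all genes tested. In THP-1 they ran from 3.77 (CDC25C) to 246 (CDC20) with a median of 26.8, against 5.50. After BUB3, the highest control means in MOLM-13 were those of CCNB1 (75.4 ± 3.43, SD, n = 3), CDC20 (70.0 ± 11.5), TOP2A (66.9 ± 0.257) and MAD2L1 (66.4 ± 3.87), and neighbours in this order lay within the larger of their SDs except BUB3 and CCNB1. The 3 controls of a member varied by a median of 7.09% of the mean in MOLM-13, from 0.384% (TOP2A) to 16.6% (AURKB), and by a median of 6.31% in THP-1.

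In MOLM-13, JOA libraries had lower means than controls for 41 of the 44 mitosis genes, with small differences: the median log2 difference was -0.09, and the range -0.24 (AURKB) to 0.12 (CDC25C). Of all 11693 genes tested, 47.6% had a lower mean and the median was 0.01. By limma, no member passed the call (an adjusted p under 0.05 with a log2 difference of 0.58 or more in size), every member's adjusted p was 1.00, and the background was 0% of all genes. At an unadjusted p under 0.05, 9 members were lower and 0 higher, against 1.57% and 2.54% of all genes. JOA values lay wholly below control values for 15 members (background 4.55%) and wholly above for 0 (5.1%).

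In THP-1, 31 of 44 members had a higher mean with JOA, where 56.7% of all 12712 genes did. The median log2 difference was 0.05, against 0.02 over all genes, and the range was -0.14 (MAD2L1) to 0.24 (HMMR). No member passed the call, which 0.134% of all genes did, and adjusted p-values of members ran from 0.127 to 0.995 by limma. At an unadjusted p under 0.05, 5 members were higher and 0 lower, against 10.9% and 5.99% of all genes, so the members' share was near the background. JOA values lay wholly above control values for 7 members (background 14.6%), namely DLGAP5, HMMR, NUSAP1, CDC25B, NEK2, KIF23 and KIF11, and wholly below for 3 (8.81%), namely CENPF, MAD2L1 and BUB1B. The counts depended on scaling: with upper quartile scaling 19 members were lower and 25 higher in THP-1, in place of 13 and 31. That scaling moved the median of all genes from 0.02 to -0.02, and that of the members from 0.05 to 0.00.

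Although no member passed the test, the data bound the size of the differences. The 95% interval of the log2 difference, not adjusted for the number of genes, lay within -0.58 and 0.58 for all 44 members in each line. The widest bounds were -0.54 for AURKB in MOLM-13 and 0.41 for CDC25C in MOLM-13. In THP-1 they were -0.29 for MAD2L1 and 0.40 for HMMR. The lines shared direction for 14 members, of which 12 were lower in both and 2 higher in both, and 29 members were lower in MOLM-13 and higher in THP-1. With 41 of 44 members lower in MOLM-13 and 31 higher in THP-1, most had to fall in that last class. Its share over all genes was not computed, so the count adds nothing to those of each line.

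**Figure D2:**
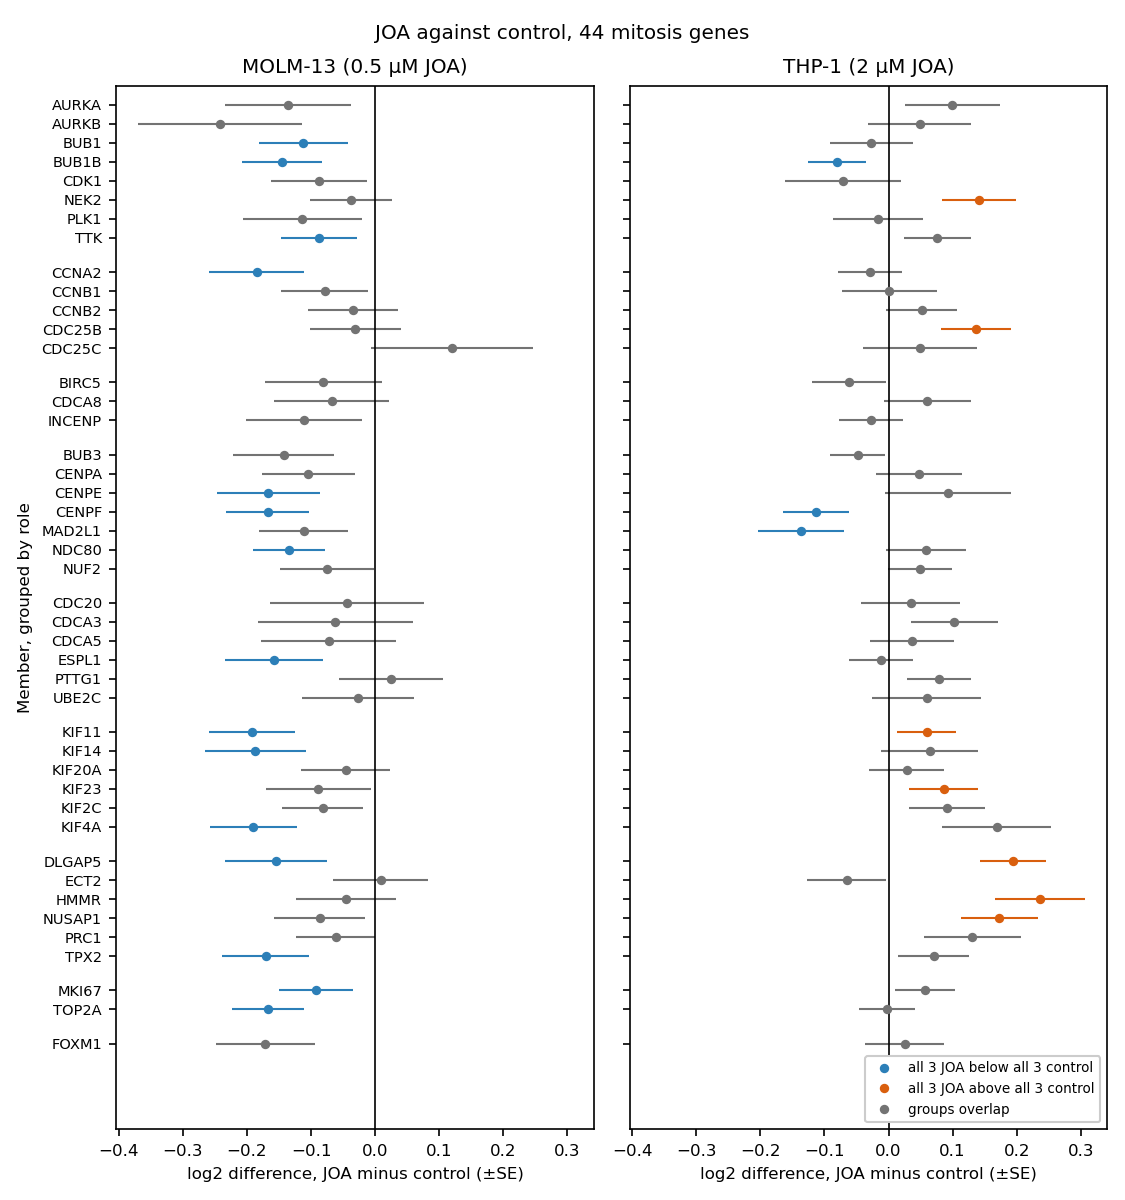
Log2 difference (JOA minus control, x axis) of log2(FPKM + 0.1) for each of the 44 members with its standard error (bars), grouped by role from the kinases at the top to FOXM1 at the bottom, n = 3 against 3 libraries in each line. In MOLM-13, 41 points lie left of 0 and 15 have non-overlapping groups (blue), while in THP-1, 31 points lie right of 0 and 7 members are wholly above control (orange) and 3 wholly below (blue).

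Among the kinases, all 8 had lower means in MOLM-13 (median log2 difference -0.11) and 4 of 8 did in THP-1 (median 0.02). CDK1, the kinase that starts mitosis, stood at 23.6, 21.9 and 22.0 FPKM in MOLM-13 controls and at 19.2, 22.5 and 21.8 with JOA. Its THP-1 values were 32.7, 30.03 and 30.5 in controls and 25.9, 29.8 and 33.4 with JOA. The groups overlapped in both lines, and the JOA library numbered 1 was the lowest of 6 in each. PLK1, which acts from mitotic entry to cytokinesis, gave 60.8, 53.5 and 47.5 FPKM in MOLM-13 controls against 52.6, 47.2 and 49.01 with JOA. In THP-1 its values were 65.7, 62.3 and 55.5 against 63.5, 58.9 and 58.6. The SD of PLK1 among controls was wider than the distance between the group means in both lines.

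AURKA, the Aurora kinase of centrosomes and spindle poles, read 28.5, 23.4 and 22.0 FPKM in MOLM-13 controls and 23.5, 21.9 and 21.3 with JOA, lower in all 3 same-numbered pairs but overlapping. In THP-1 it read 39.8, 32.9 and 34.1 in controls and 39.1, 37.9 and 37.2 with JOA, also overlapping. BUB1, a checkpoint kinase at kinetochores, measured 38.4, 33.3 and 33.6 in MOLM-13 controls and 32.1, 32.3 and 32.8 with JOA, so that every JOA library was below every control (log2 difference -0.11 ± 0.07, SE). Its THP-1 values of 54.2, 48.0 and 46.3 against 49.6, 48.1 and 47.9 overlapped.

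NEK2, a kinase that helps separate centrosomes, had 9.17, 8.81 and 9.61 FPKM in MOLM-13 controls and 8.83, 9.12 and 8.90 with JOA. In THP-1 it had 10.1, 9.30 and 9.53 in controls and 10.96, 10.3 and 10.6 with JOA. All THP-1 JOA values were above the controls (log2 difference 0.14 ± 0.06, adjusted p = 0.270 by limma), and the MOLM-13 groups overlapped. AURKB, the kinase of the chromosomal passenger complex, had the largest size of difference in MOLM-13 (-0.24 ± 0.13), with 9.42, 7.77 and 6.79 in controls and 5.99, 7.45 and 6.69 with JOA, and it also varied most among controls. BUB1B, a checkpoint protein related to BUB1, was wholly below control in both lines (-0.15 ± 0.06 and -0.08 ± 0.05), and TTK, the kinase that starts checkpoint signalling, was wholly below control in MOLM-13 (-0.09 ± 0.06) and stood at 20.0 ± 1.01 FPKM in controls and 21.1 ± 0.360 with JOA in THP-1.

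Cyclins and CDC25 phosphatases had lower means in MOLM-13 for 4 of 5 (median -0.03), and higher means in THP-1 for 4 of 5 (median 0.05). CCNB1, the cyclin B that activates CDK1, measured 78.4, 71.6 and 76.1 FPKM in MOLM-13 controls and 67.1, 71.1 and 76.1 with JOA. Its THP-1 values were 77.6, 64.5 and 66.5 in controls and 66.7, 70.7 and 70.9 with JOA. The groups overlapped in both lines, and the THP-1 means of 69.6 and 69.4 were closer than the SD of 7.06 among controls. CCNA2, cyclin A2 of S and G2 phase, gave 68.4, 58.4 and 59.7 in MOLM-13 controls and 52.5, 54.1 and 57.0 with JOA, which was wholly below control by 12.2% of the mean (log2 difference -0.18 ± 0.07). In THP-1 CCNA2 gave 75.7, 71.7 and 68.8 against 70.2, 72.0 and 69.4, with overlap.

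CDC25B, a phosphatase that starts CDK1 activation, had 21.4, 20.4 and 18.1 FPKM in MOLM-13 controls and 19.7, 19.4 and 19.4 with JOA. In THP-1 it had 8.78, 8.90 and 9.07 in controls and 10.2, 9.57 and 9.63 with JOA, wholly above control (0.14 ± 0.06, adjusted p = 0.266 by limma). The control means of CDC25B differed far more between the lines than JOA and control did within one. CDC25C, the related phosphatase and the least expressed member, was the only member higher in all 3 same-numbered pairs in MOLM-13 (background 18.5% of all genes), at 3.87, 3.52 and 4.81 against 4.14, 4.16 and 4.92. CCNB2, the second cyclin B, had overlapping groups in both lines with log2 differences of -0.03 ± 0.07 and 0.05 ± 0.06.

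The 3 passenger partners, INCENP (the scaffold), BIRC5 (survivin) and CDCA8 (borealin), had lower means in MOLM-13, from -0.07 to -0.11, and log2 differences from -0.06 to 0.06 in THP-1. None of them had groups that did not overlap in either line.

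All 7 kinetochore and checkpoint genes had lower means in MOLM-13 (median -0.13), and 3 of 7 did in THP-1 (median 0.05). CENPF, a large kinetochore protein made in G2 and M, had 18.3, 18.5 and 17.9 FPKM in MOLM-13 controls and 15.2, 16.4 and 17.1 with JOA (10.9% lower, log2 difference -0.17 ± 0.06). Its THP-1 values were 21.3, 19.7 and 20.4 in controls and 19.2, 19.2 and 18.3 with JOA (7.65% lower, -0.11 ± 0.05, adjusted p = 0.318 by limma). CENPF and BUB1B were the members whose JOA libraries lay below all controls in both lines. Of all genes, 4.55% lay wholly below control in MOLM-13 and 8.81% in THP-1, and the share in both lines was not computed. NDC80, the microtubule-binding kinetochore protein (-0.13 ± 0.06), and CENPE, a kinetochore motor (-0.17 ± 0.08), were also wholly below control in MOLM-13. MAD2L1, the checkpoint protein that binds CDC20, was wholly below control in THP-1, with means of 65.5 ± 2.86 and 59.7 ± 4.66 FPKM, while BUB3, CENPA and NUF2 overlapped in both lines.

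Anaphase genes had lower means in MOLM-13 for 5 of 6 (median -0.05) and higher means in THP-1 for 5 of 6 (median 0.05), or 3 of 6 with upper quartile scaling. CDC20, the activator of the anaphase-promoting complex, read 83.2, 64.6 and 62.2 FPKM in MOLM-13 controls and 75.8, 62.8 and 64.1 with JOA. In THP-1 it read 274, 236 and 229.8 in controls and 266, 245 and 244 with JOA. In each group of CDC20 the library numbered 1 was the highest, and control and JOA overlapped in both lines. UBE2C, the ubiquitin-conjugating enzyme of that complex, had 22.8, 20.7 and 18.4 in MOLM-13 controls against 21.5, 19.9 and 19.2 with JOA, and 38.8, 32.9 and 33.5 in THP-1 controls against 38.3, 32.9 and 38.4. These groups overlapped too. ESPL1, separase, was the one anaphase gene wholly below control in MOLM-13 (7.02 ± 0.523 and 6.27 ± 0.181 FPKM), and PTTG1 (securin, which holds separase back), CDCA3 and CDCA5 (sororin, a cohesion factor) overlapped in both lines.

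Among the mitotic kinesins, all 6 had lower means in MOLM-13 (median -0.14) and all 6 had higher means in THP-1 (median 0.08), or 5 of 6 with median ratio or upper quartile scaling. KIF11, the motor that pushes spindle poles apart, stood at 25.8, 23.0 and 23.3 FPKM in MOLM-13 controls and at 20.3, 20.9 and 21.8 with JOA (12.6% lower, log2 difference -0.19 ± 0.07). In THP-1 it stood at 27.5, 27.5 and 26.2 in controls and at 27.7, 28.7 and 28.3 with JOA (0.06 ± 0.05, adjusted p = 0.558 by limma). KIF11 and DLGAP5 were the members wholly below control in MOLM-13 and wholly above it in THP-1. Of all genes, 4.55% lay wholly below control in MOLM-13 and 14.6% wholly above it in THP-1, and the share with both was not computed. KIF4A, a chromosome-bound kinesin, had 9.90, 9.19 and 9.03 in MOLM-13 controls and 8.10, 7.99 and 8.51 with JOA (12.5% lower, -0.19 ± 0.07), again without overlap. In THP-1 it had 8.11, 6.96 and 7.17 against 8.95, 7.63 and 8.46, where the groups overlapped though all 3 pairs were higher. KIF14, a cytokinesis motor, was wholly below control in MOLM-13 (-0.19 ± 0.08), KIF23, of the central spindle, was wholly above in THP-1 (0.09 ± 0.05), and KIF2C and KIF20A overlapped in both lines.

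Of the 6 spindle and cytokinesis genes, 5 had lower means in MOLM-13 (median -0.07) and 5 had higher means in THP-1, where their median of 0.15 was the highest of the roles. DLGAP5 (HURP), which stabilizes microtubules near chromosomes, had 15.8, 13.2 and 13.4 FPKM in MOLM-13 controls and 12.9, 12.5 and 12.6 with JOA, wholly below control (-0.16 ± 0.08). In THP-1 it had 12.4, 11.6 and 12.4 in controls and 14.1, 13.7 and 13.9 with JOA, wholly above control by 14.5% (0.19 ± 0.05, adjusted p = 0.127 by limma). The mean of DLGAP5 was thus lower with JOA in MOLM-13 and higher in THP-1, with no overlap in either. In the interaction fit given below, DLGAP5 did not pass (adjusted p = 0.449 by limma). A difference in its response between the lines was therefore not shown. HMMR, a spindle protein that is also a hyaluronan receptor, had 24.1, 24.3 and 27.0 in MOLM-13 controls and 22.4, 24.4 and 26.3 with JOA, with overlap. In THP-1 HMMR had 23.6, 20.3 and 20.1 in controls and 25.6, 24.2 and 25.6 with JOA, wholly above control by 17.6% (0.24 ± 0.07, adjusted p = 0.157 by limma).

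NUSAP1, which bundles spindle microtubules, had 49.3, 42.0 and 43.9 FPKM in MOLM-13 controls against 43.0, 41.3 and 42.7, and 52.2, 49.97 and 51.2 in THP-1 controls against 56.6, 54.1 and 62.5. It overlapped in MOLM-13 and was wholly above control in THP-1 (0.17 ± 0.06, adjusted p = 0.212 by limma). TPX2, the activator of Aurora A, had 42.5, 41.6 and 37.7 in MOLM-13 controls and 36.8, 37.1 and 34.2 with JOA, wholly below control by 11.3% (-0.17 ± 0.07). In THP-1 TPX2 had 54.9, 50.2 and 48.7 against 54.8, 52.7 and 53.8, with overlap. PRC1, which bundles the central spindle, and ECT2, which starts the cleavage furrow, overlapped in both lines, and ECT2 had a log2 difference of 0.01 in MOLM-13 and -0.07 in THP-1.

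With the replicate number as a block, DLGAP5 and HMMR rose in THP-1 by the adjusted p alone (adjusted p = 0.0476 and 0.0407 by limma with the block), below the fold threshold. By the same rule 5.37% of all genes rose in THP-1, against these 2 of 44 members. In MOLM-13 the smallest adjusted p of a member with the block was 0.330, that of TPX2. At an unadjusted p under 0.05 with the block, 14 members were lower and 0 higher in MOLM-13 (522 and 773 of 11693 genes). In THP-1, 1 was lower and 7 higher (1209 and 2098 of 12712 genes).

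TOP2A and MKI67 code for a DNA topoisomerase and for Ki-67, a protein that coats mitotic chromosomes. TOP2A had the smallest p-value in MOLM-13, with 66.6, 66.9 and 67.1 FPKM in controls and 56.7, 60.4 and 61.6 with JOA (10.9% lower, log2 difference -0.17 ± 0.06). Its THP-1 values were 89.8, 84.8 and 85.9 in controls and 87.0, 85.5 and 87.4 with JOA, and the means of 86.8 and 86.7 differed by less than either SD. The 3 MOLM-13 controls of TOP2A spanned less than its 3 JOA libraries. MKI67 read 23.8, 23.3 and 23.4 in MOLM-13 controls and 21.2, 21.8 and 23.1 with JOA, wholly below control (-0.09 ± 0.06). In THP-1 MKI67 read 30.1, 30.6 and 29.6 against 32.2, 31.6 and 30.1, with overlap (0.06 ± 0.05). FOXM1, a transcription factor that activates many of these genes, had 16.5, 15.5 and 14.5 in MOLM-13 controls and 14.7, 13.8 and 12.8 with JOA, lower in all 3 pairs (-0.17 ± 0.08) but overlapping, and 28.5, 26.7 and 24.6 against 27.8, 27.1 and 26.2 in THP-1.

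**Figure D3:**
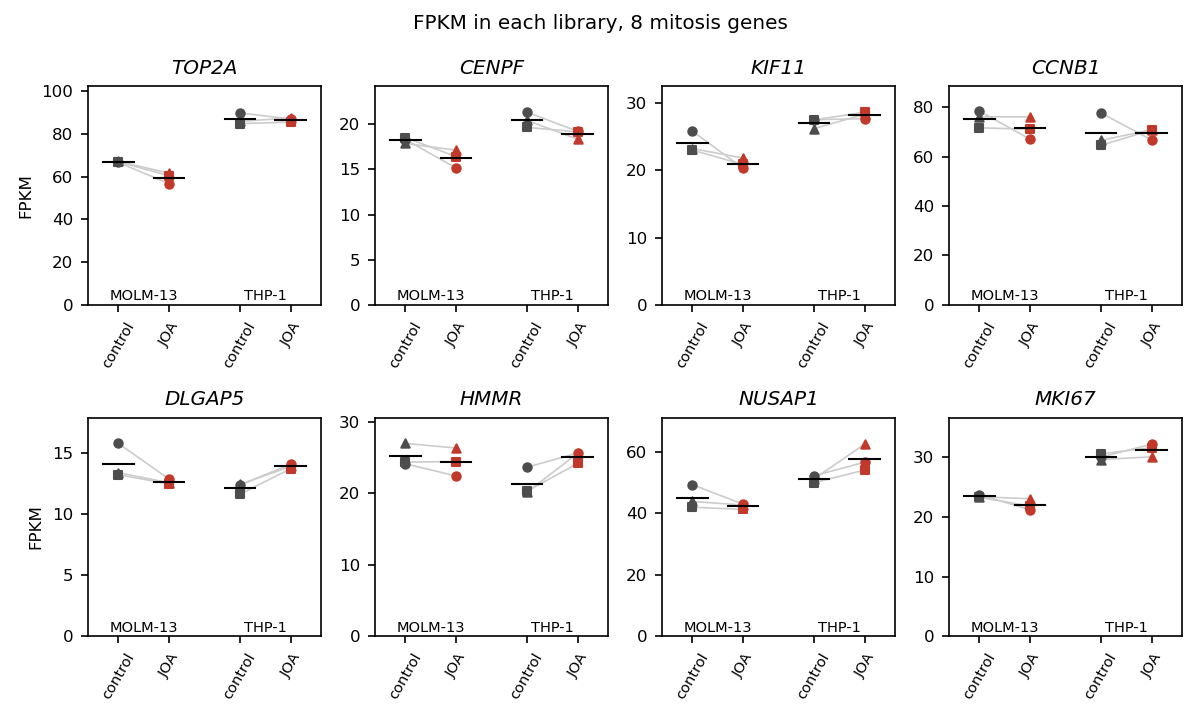
FPKM (y axis, from 0) of 8 members in each library, control in grey and JOA in red, with circles, squares and triangles for replicates 1, 2 and 3, grey lines joining libraries of the same number and bars for the mean of 3. TOP2A, CENPF, KIF11, DLGAP5 and MKI67 have every JOA value below every control in MOLM-13, while DLGAP5, HMMR, NUSAP1 and KIF11 have every JOA value above every control in THP-1.

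The members moved together between libraries, and the first control of each line stood apart. It was the highest of 3 controls for 37 of 44 members in MOLM-13 (43.2% of all genes) and for 36 of 44 in THP-1 (40.0%). The mean of log2(FPKM + 0.1) over the members was 4.53, 4.38 and 4.36 in MOLM-13 controls and 4.31, 4.32 and 4.33 with JOA. All 3 JOA libraries thus lay below all 3 controls, the first of which was well above the other two. In THP-1 the means were 4.73, 4.63 and 4.60 in controls and 4.72, 4.68 and 4.70 with JOA, with overlap.

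Within same-numbered pairs, the mean difference in MOLM-13 was -0.21, -0.06 and -0.03, and 43, 34 and 31 of the 44 members were lower. All 3 pairs were lower for 24 members (background 15.7% of all genes). In THP-1 the mean difference was -0.02, 0.05 and 0.10, and 21, 31 and 36 members were higher. All 3 pairs were higher for 16 members (background 29.3%) and lower for 6 (19.4%).

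Without the first MOLM-13 control, 33 of 44 members had a lower mean, and the median log2 difference was -0.05. Without both MOLM-13 libraries numbered 1, 32 members had a lower mean and the median was -0.04. With fewer libraries the groups overlap less often in any gene: 15 members lay wholly below control without the first MOLM-13 control, where 9.25% of all genes did, and 19 without both libraries numbered 1, where 13.9% did. Without the first THP-1 control, 9 members were lower, the median was 0.09 and 24 members lay wholly above control, where 22.2% of all genes did. Without the third THP-1 control, 19 were lower and the median was 0.00. The size of the MOLM-13 difference and the THP-1 counts therefore rested partly on single control libraries.

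**Figure D4:**
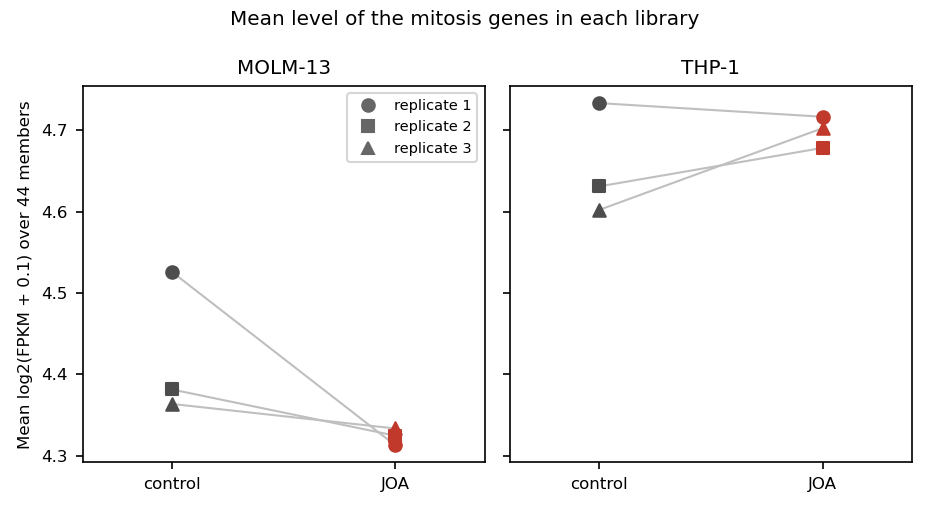
Mean of log2(FPKM + 0.1) over the 44 members (y axis) in each library, control and JOA, with lines joining libraries of the same replicate number. In MOLM-13 the first control stands at 4.53 and all JOA libraries lie between 4.31 and 4.33, below every control, while in THP-1 control (4.60 to 4.73) and JOA (4.68 to 4.72) overlap.

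In MOLM-13 the median log2 difference was -0.10 over the 23 members with CHR and CCAAT and -0.08 over the 14 without both, and 22 and 12 of them had lower means. In THP-1 both medians were 0.05, but 9 of the 23 members with both motifs had lower means and 2 of the 14 others did. Split by CHR letters alone, lower means in THP-1 were seen for 10 of 27 members with them and for 1 of 10 without. These values are descriptions of the members with a promoter window, and the difference between them was not tested. Presence and absence refer to exact letters in the window of the first listed start, so a member without a match may have one elsewhere.

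The difference of the JOA effect between the lines was fitted as an interaction over all 12 libraries, as the THP-1 effect minus the MOLM-13 effect. It was positive for 41 of 44 members, with a median of 0.15, where 55.4% of all 12626 genes were positive and the median was 0.02. No member passed an adjusted p under 0.05 by limma, and 0% of all genes did. At an unadjusted p under 0.05, 12 members were positive, against 4.61% of all genes. The 4 members with the smallest p were DLGAP5 (0.35 ± 0.09, adjusted p = 0.449), KIF4A (0.36 ± 0.11, 0.502), KIF11 (0.25 ± 0.08, 0.504) and TPX2 (0.24 ± 0.09, 0.573). By role the median was largest for the spindle and cytokinesis genes (0.25) and the kinesins (0.21), and smallest for the passenger partners (0.08). Without the first MOLM-13 control the median was 0.08 and 7 members were negative. This fit had no pairing term. With the replicate block, 18 members were positive and 0 negative at an unadjusted p under 0.05 (1147 and 736 of 12626 genes). The smallest adjusted p of a member was then 0.0986 by limma with the block.

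Before treatment the lines differed in single mitosis genes. By the same call, 7 members were higher in untreated THP-1 than in untreated MOLM-13 and 1 was lower, where 25% and 19% of all 12635 genes were. By adjusted p alone, 25 members were higher and 5 lower, against 39% and 32.2% of all genes. The median log2 difference was 0.20 over members and 0.06 over all genes.

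CDC20 differed most, with 3.52-fold higher FPKM in THP-1 (log2 difference 1.82 ± 0.12, adjusted p = 3.33e-06 by limma), and every THP-1 control was above every MOLM-13 control. CDC25B, in contrast, was 2.24-fold higher in MOLM-13 (-1.15 ± 0.07), at 20.0 ± 1.65 and 8.92 ± 0.144 FPKM. ESPL1 had 7.62, 6.82 and 6.63 FPKM in MOLM-13 and 12.8, 13.0 and 13.3 in THP-1 (log2 difference 0.89 ± 0.07). NUF2, a partner of NDC80, had 13.8, 12.9 and 12.1 against 24.7, 23.3 and 22.9 (0.86 ± 0.07). ECT2 had 7.85, 7.31 and 7.16 against 14.0, 12.4 and 12.7 (0.80 ± 0.07). In each of these genes the lines did not overlap. FOXM1 (0.77 ± 0.08), UBE2C (0.76 ± 0.10) and KIF2C, a microtubule depolymerase (0.72 ± 0.06), were the other called members.

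Of the 6 anaphase genes, 5 were higher in THP-1 by adjusted p, with a median log2 difference of 0.53, whereas CCNB1 (75.4 and 69.6 FPKM) and MAD2L1 (66.4 and 65.5) had close means. KIF4A (-0.34 ± 0.08), HMMR (-0.24 ± 0.08), BUB3 (-0.22 ± 0.07) and DLGAP5 (-0.21 ± 0.08) were lower in THP-1 by adjusted p without reaching the fold threshold. Scaling each library to 1 common sum or by its upper quartile moved the median of all genes by 0.11 and 0.12, to 0.17 and 0.18, and the median of the members to 0.29 and 0.33, so the members stayed above all genes.

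**Figure D5:**
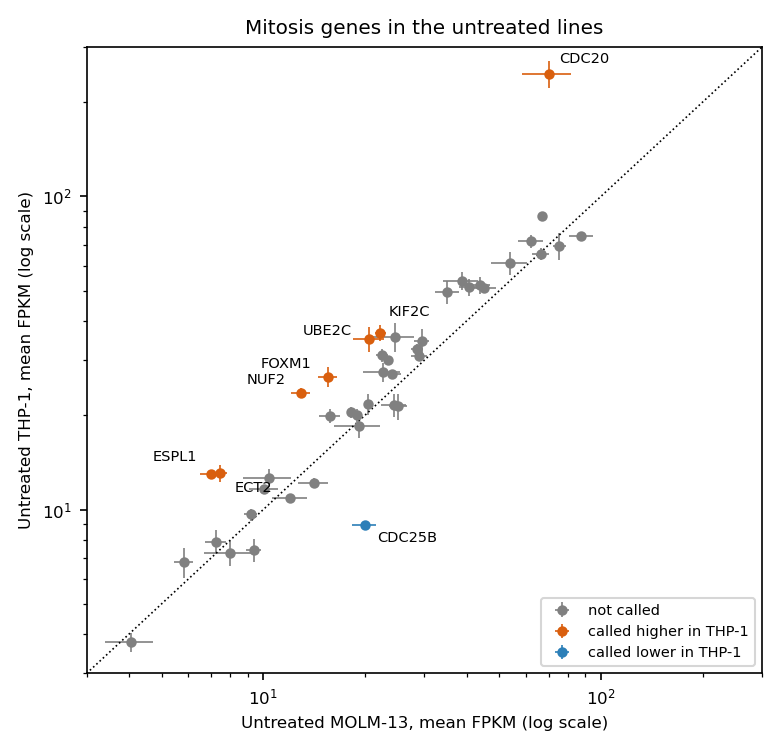
Mean FPKM of the 44 members in untreated MOLM-13 (x axis) and untreated THP-1 (y axis), both on log scales, with SD bars over 3 libraries and equal levels on the dotted line. CDC20 (70.0 and 246 FPKM) lies farthest above the line, CDC25B (20.0 and 8.92) farthest below it, and 7 members are called higher in THP-1.

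Other cell cycle genes were set beside the members. In MOLM-13, 91 of 100 other mitosis genes had lower means (median -0.09). So did 17 of 20 transcription regulators of the cell cycle (-0.11) and all 34 S phase genes (-0.14). JOA lay wholly below control for 17 other mitosis genes, 6 regulators and 13 S phase genes, where 4.55% of all genes did. It lay wholly above for 2, 0 and 0 of them, where 5.1% of all genes did. None was called by limma, and every adjusted p of these lists was 1.00. MCM6, a subunit of the replicative helicase, had 65.0 ± 0.789 FPKM in controls and 57.2 ± 2.39 with JOA, and KIF20B, a cytokinesis kinesin, had 12.5 ± 0.521 and 10.8 ± 0.586. The S phase genes thus had a lower median than the mitosis genes in MOLM-13, a difference that was not tested. Of 10 G1 genes tested, 6 had lower means, and CDKN1A (p21, an inhibitor of cyclin-dependent kinases) had 100.1 ± 1.21 in controls and 119 ± 4.56 with JOA, wholly above control (log2 difference 0.25 ± 0.06).

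In THP-1, 67 of 100 other mitosis genes (median 0.03), 14 of 20 regulators (0.04) and 21 of 34 S phase genes (0.02) had higher means, and 8 of 11 G1 genes had lower means. None was called by limma. With the replicate block and by adjusted p alone, 2 of the 100 other mitosis genes, 0 of 20 regulators, 1 of 34 S phase genes and 1 of 11 G1 genes rose, where 5.37% of all genes did, and 0, 1, 0 and 1 fell, where 2.69% of all genes did. Those that rose were CKAP2L, a spindle protein (7.93 ± 0.465 and 9.53 ± 0.490 FPKM, adjusted p = 0.0264), CENPW, a centromere protein (log2 difference 0.29 ± 0.06 with the block, 0.0354), RRM2, a subunit of ribonucleotide reductase (54.5 ± 3.68 and 62.0 ± 3.24, 0.0305), and CDKN2D, an inhibitor of CDK4 and CDK6 (5.07 ± 0.628 and 7.24 ± 0.239, 0.0162). Those that fell were E2F5 (1.68 ± 0.121 and 1.18 ± 0.213, 0.0482) and CDK6, a G1 kinase (-0.26 ± 0.06, 0.0362). CENPW and CDK6 were named after their values were seen. CDKN1A, whose mean was higher with JOA in MOLM-13 without passing the call, stood at 25.9 ± 0.551 and 22.9 ± 0.366 FPKM in THP-1. There it lay wholly below control (-0.18 ± 0.04, adjusted p = 0.115 by limma). Whether CDKN1A differed in response between the lines was fitted with the other genes, without the block. No gene passed an adjusted p under 0.05 in that fit. With the block, 3 of all genes were positive and 3 negative by adjusted p. The smallest adjusted p among the G1 genes, which need not be that of CDKN1A, was then 0.0659 by limma with the block.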

How the data were processed

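Stranded mRNA libraries of 12 samples were sequenced as 150-base read pairs. The authors deposited 1 table of FPKM values per gene and library, and the submitters' notes name Trimmomatic, HISAT2, Cufflinks and HTSeq with build hg38 and no versions or roles. FPKM is scaled to gene length and mapped fragments, so a level is relative to all other transcripts of its library.

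Genes with a mean of at least 0.1 FPKM over the libraries compared were kept, and log2(FPKM + 0.1) was fitted by limma 3.58.1 in R 4.3.3 (lmFit, eBayes with a trend, two-sided, Benjamini-Hochberg adjustment over all genes tested). A call needed an adjusted p under 0.05 with a log2 difference of 0.58 or more in size, thresholds taken from the methods of the study, which used a count-based test. This scale understates changes of low genes. The procedure was tested on simulated data.

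Control and JOA libraries share replicate numbers in the labels. Over all genes, the deviations of libraries from their group mean had correlations of 0.264 to 0.398 (MOLM-13) and 0.139 to 0.319 (THP-1) for the same number, and of -0.256 to 0.0168 and -0.259 to -0.0280 for different numbers, so the numbers were taken to pair the libraries. Over the members alone, correlations in MOLM-13 were 0.395 to 0.581 for the same number and -0.523 to -0.0209 for different numbers. In THP-1 they were 0.00825 to 0.297 and -0.325 to 0.154, so there the ranges overlapped and the members showed the pairing less clearly. The pairing rests on these data and is not stated in the labels. It was used in the replicate block and in the comparisons of same-numbered libraries. The main fits, their SEs and intervals, and the main interaction fit had no pairing term.

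The members and lists were chosen with earlier results of these data known. Values per library are given for 10 members chosen for their role, for the 6 with the smallest p in each JOA comparison, and for the 6 with the largest difference between untreated lines; the 4 with the smallest interaction p are named, and the other lists are given as counts with at most 2 genes each per line, beside CENPW and CDK6, chosen after their values were seen. Further members are named where needed to account for all 44. Alternatives were other pseudocounts, filters, scalings and variance models, the replicate block, other call rules, a fit on all libraries, and each library left out. The block with adjusted p alone, and leaving out both libraries numbered 1, were chosen after seeing the data. A marker gene that was looked at is not reported here.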

Additional observations from a re-analysis of the deposited data

How the results depend on the processing

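No member passed the call in either JOA comparison under any alternative that kept both thresholds, and the replicate block changed no call under both thresholds. By adjusted p alone it gave 2 members higher in THP-1 in place of 0, as given with the results. For MOLM-13, leaving out 1 library gave 33 to 42 members lower and a median of -0.13 to -0.05. It gave 15 to 23 members wholly below control and 0 to 1 wholly above. With both MOLM-13 libraries numbered 1 left out, 2 members lay wholly above control (17.3% of all genes). For THP-1, 9 to 19 members were lower with 1 library left out. Members wholly below control numbered 5 with median ratio scaling (12.8% of all genes) and 7 with upper quartile scaling (14.3%). They numbered 3 to 5 with 1 library left out. Those wholly above numbered 3 with upper quartile scaling (9.24% of all genes) and 7 to 24 with 1 library left out. Without both THP-1 libraries numbered 1, 8 members were lower, 7 wholly below (17.8% of all genes) and 24 wholly above (28.0%). The THP-1 median ranged from 0.00 to 0.09 with 1 library left out and was 0.00 with upper quartile scaling. For the interaction, 5 members were negative with median ratio or upper quartile scaling and 1 to 7 with 1 library left out, the median then ranged from 0.085 to 0.18, and 12 members had an unadjusted p under 0.05. For the untreated lines the median was 0.29 scaled to 1 common sum and 0.33 with upper quartile scaling, 11 members were called higher with upper quartile scaling, and by adjusted p alone 25 were higher and 5 lower. With 1 library left out, 8.02% to 10.4% of all genes lay wholly below and 8.48% to 13.1% wholly above control in MOLM-13, and 11.8% to 14.9% and 18.5% to 22.2% in THP-1. Of 701 values for single members, 670 kept their direction and their side of the threshold, and 31, in 10 pairs of member and line, had the opposite sign, 7 with another scaling and 24 with libraries left out, with no call in either. In THP-1, with median ratio and upper quartile scaling, CCNB1 was at -0.030 and -0.046 and FOXM1 at -0.0056 and -0.022, CDC20 was at -0.013 with the latter, and PLK1 was at 0.0081 and TOP2A at 0.022 scaled to 1 common sum. With 1 library or both numbered 1 left out, values in MOLM-13 ranged from -0.13 to 0.087 for CDC20, from -0.11 to 0.047 for UBE2C and from -0.13 to 0.015 for CDK1. In THP-1 they ranged from -0.050 to 0.11 for CCNB1, from -0.16 to 0.060 for CDK1, from -0.085 to 0.037 for PLK1, from -0.073 to 0.041 for BUB1, from -0.014 to 0.11 for CDC20, from -0.019 to 0.022 for TOP2A and from -0.028 to 0.075 for FOXM1. The cause of these shifts was not tested. Depth is unknown, and 3 libraries a group limit the precision.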
